A study of Mus musculus with 20 samples.

Results

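The collagen gene family was examined in mouse spinal cord 4 h after a single injection of dexamethasone (Dex), a synthetic agonist of the glucocorticoid receptor. Members were the genes whose symbol has the form Col, number, a, number and that had a probe set annotated to that symbol alone, with the probe set of highest mean kept. This gave 44 collagen genes among the 22180 genes tested. Hybridisation was to Affymetrix whole-transcript arrays, 1 per mouse, 20 in all. The 4 groups of 5 mice were control mice given saline, control mice given Dex at 4 mg/kg intraperitoneally, Cx30GRko mice given saline, and Cx30GRko mice given the same dose of Dex. All were C57BL/6J mice of 6 to 10 weeks. The name Cx30GRko joins connexin 30, a gap junction protein of astrocytes, with the glucocorticoid receptor, and the design text speaks of Cre-mediated recombination that was most efficient in the spinal cord. The sample titles mark these mice as Tg. Which alleles the control mice carried is not given in the sources used here. RNA came from spinal cord tissue with all its cell types, so for any gene fewer cells of a type and less RNA per cell cannot be told apart.

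Collagens are triple helices of 3 chains that form much of the extracellular matrix. Fibrillar collagens build the fibres of connective tissue, type IV chains build the sheets of basement membranes, fibril-associated collagens decorate fibres, and type VI chains form beaded filaments. In the spinal cord, fibrillar and type VI collagens are made mainly by fibroblasts of the meninges and around vessels, and type IV collagen by the cells of the vessel wall. Glucocorticoids are textbook repressors of type I and type III collagen genes in fibroblasts of the skin. A Dex comparison in each genotype, their difference, and the genotype comparison under each treatment were made for every member.

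No collagen passed the test for Dex or for genotype. In limma's test across all 22180 genes, 0 of 44 collagens passed an adjusted p of 0.05 in each of the 6 comparisons. The share of all genes that passed was 0.0135% for Dex in control mice, 0.018% for Dex in Cx30GRko mice and 0.149% for the mean of both Dex effects. It was 0% for the difference between the Dex effects and for genotype under saline or under Dex. At an unadjusted p under 0.05, 5 collagens were found for Dex in control mice (11.4%, against 5.16% of all genes) and 3 for Dex in Cx30GRko mice (6.82%, against 9.73%). For the mean Dex effect there were 4 (9.09%, against 8.64%), and for the difference between the Dex effects 3 (6.82%, against 5.65%). For genotype under saline there were 3 (6.82%, against 5.25%) and under Dex 3 (6.82%, against 11.2%). The fit used 1 residual spread per gene for all arrays. From it, the median distance from a collagen's Dex effect in 1 genotype to the bounds of its 95% interval was 0.50 log2 units. The interval lay wholly within 1 log2 unit of 0 for 38 of 44 collagens in control mice and for 35 in Cx30GRko mice. Fitted alone, replicates 1 to 3 gave a distance of 0.41, with 39 and 40 collagens within that limit. Replicates 4 and 5 alone gave 0.91, with 7 and 8 within it. How closely a Dex effect was bounded thus depended on the arrays used. The groups of 5 arrays did not overlap for 1 collagen in each of Dex in control mice (1.24% of genes) and genotype under Dex (1.28%), and for none in Dex in Cx30GRko mice (1.53%) or genotype under saline (0.938%).

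**Figure D1:**
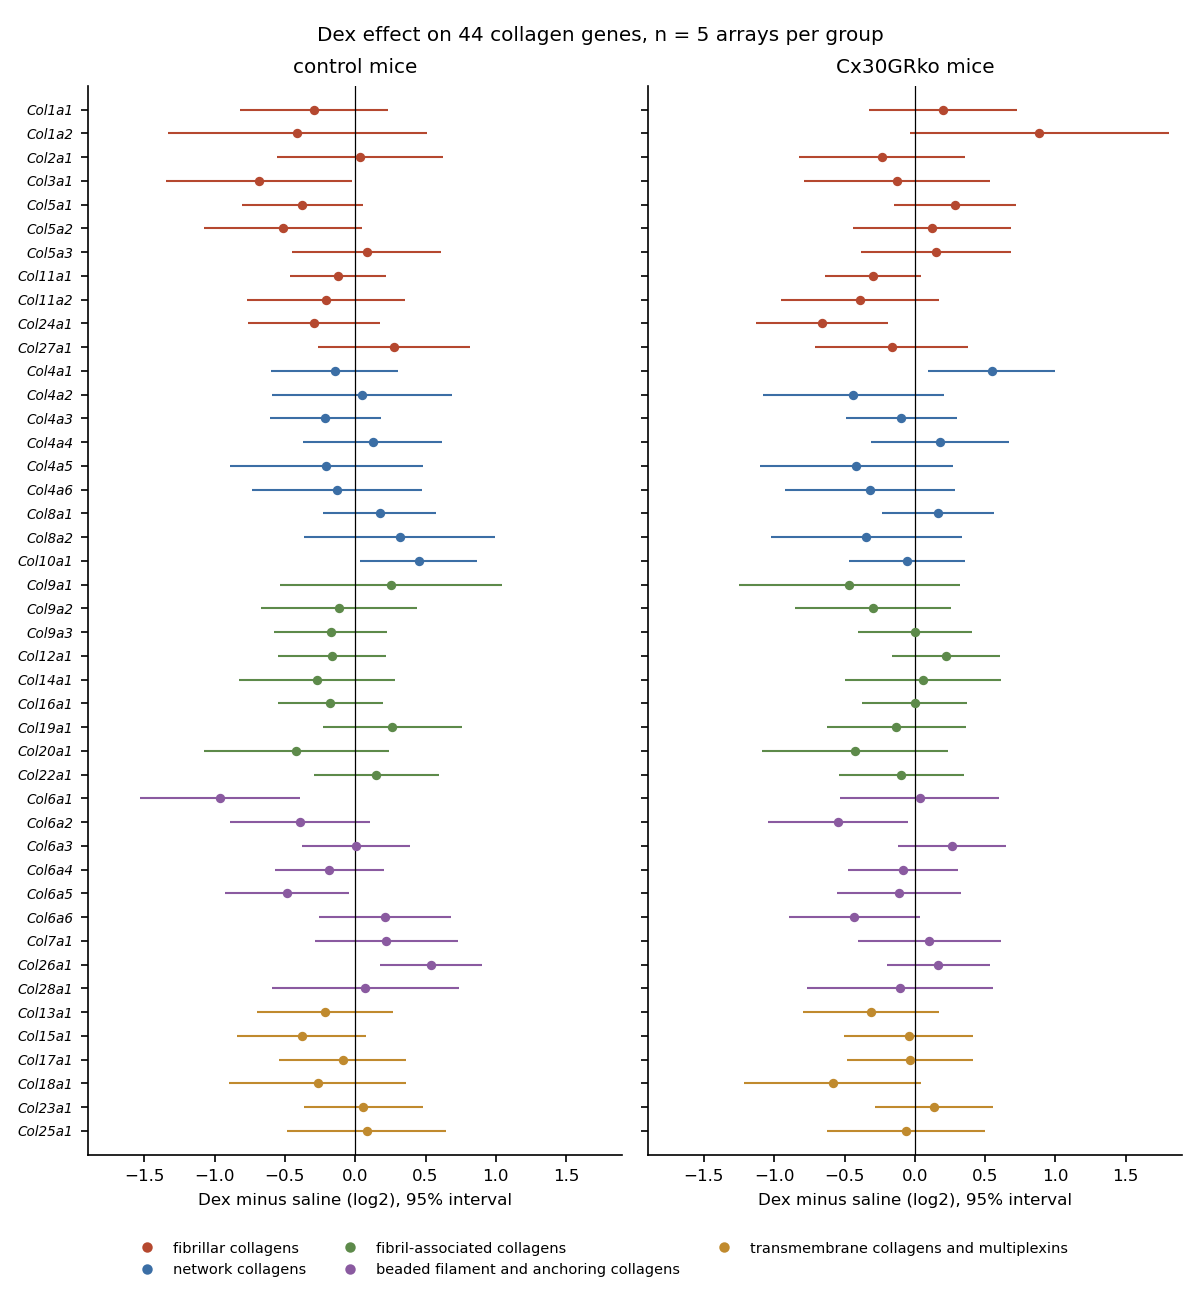
Dex minus saline on the log2 scale for each of the 44 collagens in control mice (left) and Cx30GRko mice (right), with 95% intervals from limma and colours for the structural class, 5 arrays per group. The interval excludes 0 for 5 collagens on the left and 3 on the right, and Col6a1 in control mice lies farthest to the left at -0.96.

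The same arrays did record a response to Dex. The genes used as checks were picked with earlier results of these data known, so they are not separate evidence. Cdkn1a, a cell cycle inhibitor and glucocorticoid target, was higher after Dex by 1.72 ± 0.27 (difference ± SE, log2) in control mice (adjusted p = 0.0181) and by 1.88 ± 0.27 in Cx30GRko mice (adjusted p = 0.0129). Sgk3, a kinase of the Sgk family, was higher by 1.33 ± 0.19 (adjusted p = 0.0105) and by 1.10 ± 0.19 (adjusted p = 0.0403). Fkbp5, which binds Hsp90 in the receptor complex, differed by 0.60 ± 0.25 (limma adjusted p = 0.901) and 0.78 ± 0.25 (limma adjusted p = 0.47). In replicates 1 to 3 alone its differences were 1.23 (limma adjusted p = 0.0130) and 1.13 (limma adjusted p = 0.0561). In replicates 4 and 5 alone they were -0.34 and 0.24. Nr3c1, the receptor gene itself, had array values of 5.40 to 6.58 under saline and 6.11 to 6.30 under Dex in control mice, and 6.01 to 6.49 and 6.08 to 7.79 in Cx30GRko mice, so whole-tissue signal did not mark the genotype. Gjb6, the connexin 30 gene, lay between 5.80 and 7.06 on every array. The median astrocyte, neuron and oligodendrocyte marker stood at percentiles of 95.5 to 96.3 of mean signal among genes, as the tissue label requires. Collagens stood at percentiles of 25.5 to 89.9, with a median of 55.5.

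A pair of features of the arrays bears on every value. Each gene's mean was the same in the 12 arrays of replicates 1 to 3 (the 12-array set) as in the 8 arrays of replicates 4 and 5 (the 8-array set), to within 4.5e-09, so values were centred within these sets, and the residual SD of a typical gene was 0.212 in the first set and 0.373 in the second. The Cx30GRko Dex arrays 4 and 5 stood apart, with an SD across probe sets of 1.95 and 1.81, against 1.66 to 1.71 on the other 6 arrays of their set. On these 2 arrays 24 of 44 collagens had their lowest value of all 20 arrays (54.5%, against 22.0% of all genes), 13 on the first and 11 on the second, whereas 3 had their highest there (6.82%, against 28.0%). Averaged over all collagens, the deviation from each gene's own mean was -0.39 and -0.35 on these 2 arrays and lay between -0.27 and 0.26 on the other 18. Astrocyte markers averaged 0.93 and 0.55 on the same 2 arrays and -0.47 to 0.096 on the other 18. This was not particular to astrocytes. Oligodendrocyte markers averaged 0.83 and 0.27 there and -0.38 to 0.20 on the other 18, and neuron markers 0.53 and 0.36 against -0.42 to 0.15. Microglia markers averaged -0.12 and 0.11 on these 2 arrays. Values of the named collagens that rest on these arrays are given with and without them.

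**Figure D2:**
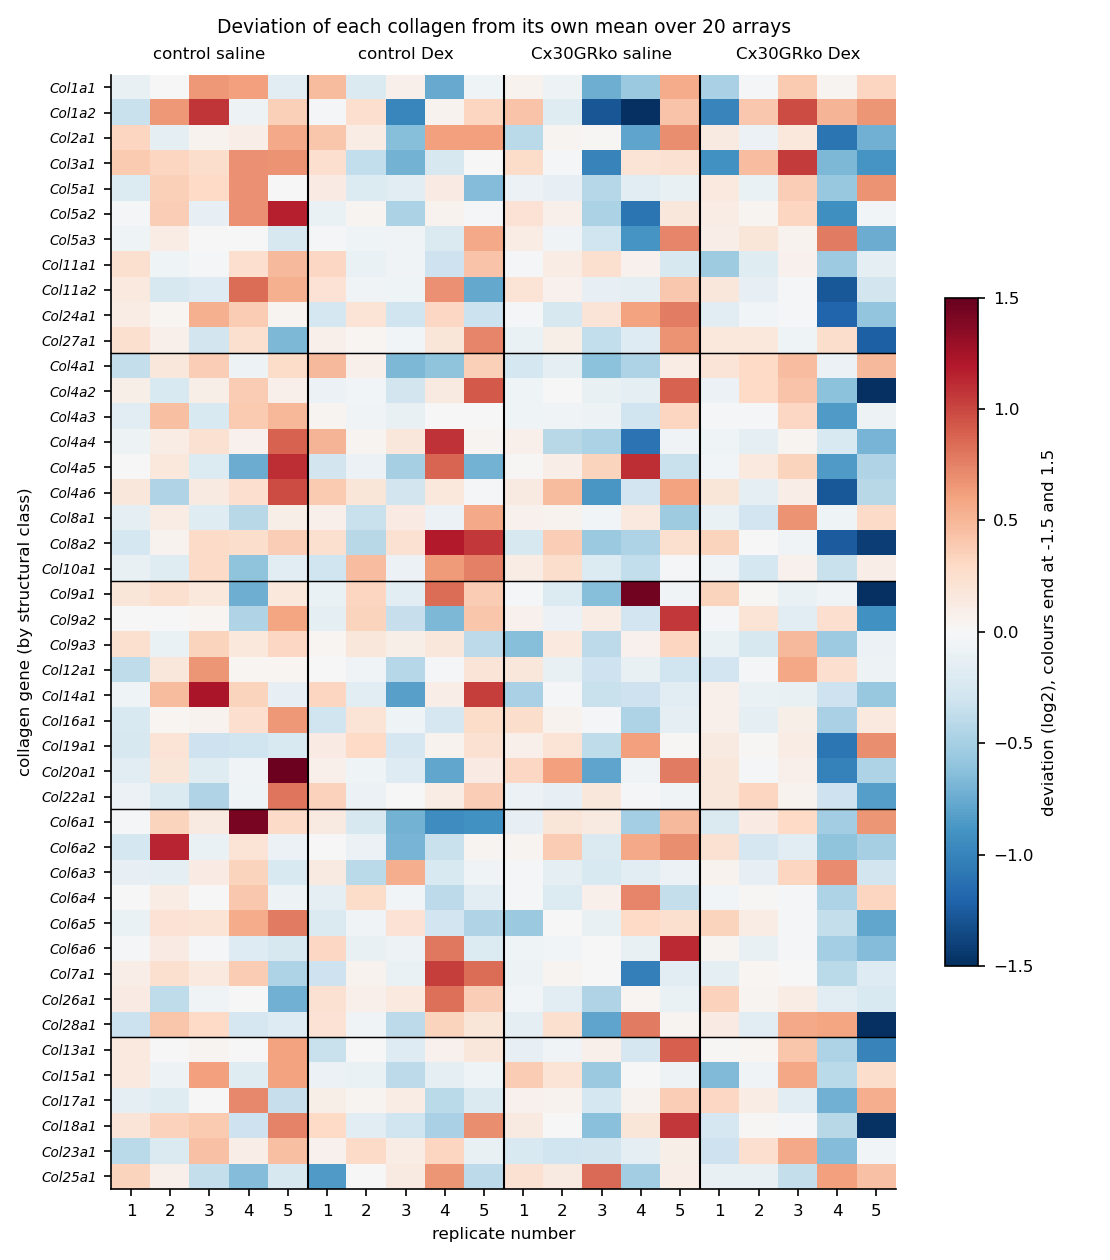
Deviation of each of the 44 collagens (rows, by structural class) from its own mean over 20 arrays (columns, replicates 1 to 5 of each group), in log2 units, with red above and blue below the mean. Blue runs down most of the columns of Cx30GRko Dex replicates 4 and 5, where 24 of 44 collagens had their lowest value.

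More collagens had a negative than a positive Dex difference in both genotypes, but not in both sets of arrays. In control mice the median collagen difference was -0.14, with 26 of 44 lower, against 0.012 over all genes, and it was -0.065 in the 12-array set and -0.18 in the 8-array set. In Cx30GRko mice it was -0.090, with 28 of 44 lower, against 0.024 over all genes. There the sets went opposite ways: 33 of 44 were higher in the 12-array set, with a median of 0.18, and 30 of 44 were lower in the 8-array set, with a median of -0.40. Without Cx30GRko Dex replicates 4 and 5, 29 of 44 were higher, with a median of 0.11. The difference between genotypes in Dex effect uses the same 4 groups, so these values are not separate evidence.

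By class, the 11 fibrillar collagens had a median Dex difference of -0.30 in control mice, with 8 lower, and of -0.13 in Cx30GRko mice, with 6 lower. The 9 network collagens, which hold the type IV, VIII and X chains, had medians of 0.048 and -0.095. The 9 fibril-associated collagens had -0.17 and -0.095. The 9 chains of beaded filaments, anchoring fibrils and related types had 0.0066 and -0.084, and the 6 transmembrane collagens and multiplexins had -0.15 and -0.054. Without the Cx30GRko Dex arrays 4 and 5 the class medians in Cx30GRko mice were 0.15, 0.13, 0.068, 0.14 and -0.00064 in the same order. Of the 27 collagens not described with all their arrays, 13 had a positive and 14 a negative Dex difference in control mice, from -0.42 for Col20a1 to 0.45 for Col10a1. In Cx30GRko mice 7 were positive and 20 negative, from -0.58 for Col18a1, the source of endostatin, to 0.26 for Col6a3. Genotype differences of these 27 ran from -0.33 for Col7a1, the anchoring fibril chain, to 0.33 for Col25a1 under saline, and from -0.54 for Col2a1, the main cartilage collagen, to 0.18 for Col25a1 under Dex.

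Among the fibrillar collagens, Col3a1, the chain of type III collagen in skin and vessel walls, was the member whose control groups did not overlap. Its log2 signals were 5.74, 5.67, 5.61, 6.04 and 6.02 under saline and 5.60, 4.98, 4.64, 5.10 and 5.34 under Dex in replicates 1 to 5. The highest Dex value lay just below the lowest saline value. The difference was -0.68 ± 0.32 (95% interval -1.35 to -0.021, adjusted p = 0.942), with -0.60 in the 12-array set and -0.80 in the 8-array set. In Cx30GRko mice the values were 5.62, 5.32, 4.34, 5.55 and 5.58 under saline and 4.43, 5.80, 6.39, 4.68 and 4.46 under Dex. There the groups overlapped, and Dex replicates 2 and 3 were the highest 2 of the 10 arrays while replicates 1, 4 and 5 were among the lowest 4. That difference was -0.13 ± 0.32 (adjusted p = 0.916) and 0.26 without Dex replicates 4 and 5. The Dex effects of the genotypes differed by 0.56 ± 0.45 (adjusted p = 0.867), and by 0.95 without those arrays.

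The chains of type I collagen, the main collagen of the meninges and of bone, gave opposite signs of Dex difference in the genotypes without passing in either. Col1a1, the pro-alpha1 chain, had values of 6.06, 6.16, 6.82, 6.79 and 6.01 in control mice under saline and 6.65, 5.95, 6.25, 5.42 and 6.10 under Dex, a difference of -0.30 ± 0.25 (adjusted p = 0.967). In Cx30GRko mice it had 6.22, 6.09, 5.44, 5.61 and 6.73 and 5.68, 6.15, 6.57, 6.21 and 6.49, a difference of 0.20 ± 0.25 (adjusted p = 0.808), and of 0.12 without Dex replicates 4 and 5. Both pairs of groups overlapped widely. Col1a2, the pro-alpha2 chain, had the largest residual SD of all collagens, 0.80 log2 units, higher than in 99.2% of genes. Its values in control mice were 5.90, 6.89, 7.31, 6.16 and 6.60 under saline and 6.22, 6.49, 5.25, 6.29 and 6.55 under Dex, and the difference was -0.41 ± 0.44 (adjusted p = 0.97). In Cx30GRko mice they were 6.66, 6.06, 4.96, 3.98 and 6.67 and 5.25, 6.65, 7.21, 6.74 and 6.90, and the difference was 0.89 ± 0.44 (adjusted p = 0.52), or 0.70 without Dex replicates 4 and 5. Saline replicates 3 and 4 and Dex replicate 1 were low and the other 7 arrays lay between 6.06 and 7.21. The genotypes' Dex effects differed by 1.30 ± 0.63 (95% interval -0.0051 to 2.60, adjusted p = 0.846). A second, dimmer probe set of Col1a2 gave -0.070 for Dex in control and -0.14 for Dex in Cx30GRko mice, the latter of opposite sign, and 0.0097 for Cx30GRko minus control under saline, where the first gave -0.91. It did not follow the first over the 20 arrays (r = -0.35), and which of them reads Col1a2 correctly is not settled by the files. The second probe set had a mean of 3.57 (SD 0.28) over the 20 arrays, against 6.24 (SD 0.82) for the first. The correlations and the slope of Col1a2 given further on use the first probe set only.

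Promoters of Col1a2 and Col3a1 are shown because their signals followed each other across the arrays of one set, as described further on. Each run is the 250 bases before the start of the gene in RefSeq's GRCm38.p6 annotation, 5′ to 3′ on the strand of the gene, with matches in capitals. Searched on both strands were CCAAT (bound by NF-Y), then GGGCGG (bound by Sp1), then TATAAA (the TATA box) and also AGAACA (the core hexamer of glucocorticoid response elements).
Col1a2, chr6:4505368-4505617, plus strand: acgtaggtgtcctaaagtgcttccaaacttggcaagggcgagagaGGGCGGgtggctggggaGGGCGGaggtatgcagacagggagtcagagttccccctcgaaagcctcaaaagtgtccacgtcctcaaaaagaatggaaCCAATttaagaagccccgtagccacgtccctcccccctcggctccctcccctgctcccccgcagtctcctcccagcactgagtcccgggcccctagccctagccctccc
Col3a1, chr1:45311288-45311537, plus strand: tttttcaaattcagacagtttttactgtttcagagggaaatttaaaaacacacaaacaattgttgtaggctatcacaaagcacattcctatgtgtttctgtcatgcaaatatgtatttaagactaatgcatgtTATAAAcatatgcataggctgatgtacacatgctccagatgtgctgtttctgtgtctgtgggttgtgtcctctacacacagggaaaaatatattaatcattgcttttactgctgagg
Col1a2 had 1 CCAAT from 109 to 105 bases before the start and 2 GGGCGG from 205 to 200 and from 188 to 183. Col3a1 had 1 TATAAA from 117 to 112 bases before the start. Neither window held AGAACA. Of 44 collagens, 35 matched the promoter table, with 38 windows in all. GGGCGG occurred in 57.9% of these windows and in 32.7% of all 32851, CCAAT in 34.2% and 33.8%, TATAAA in 13.2% and 12.4%, and AGAACA in 5.26% and 16.1%. A match of letters is a description and not a binding site, and a gene can have several windows.

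**Figure D3:**
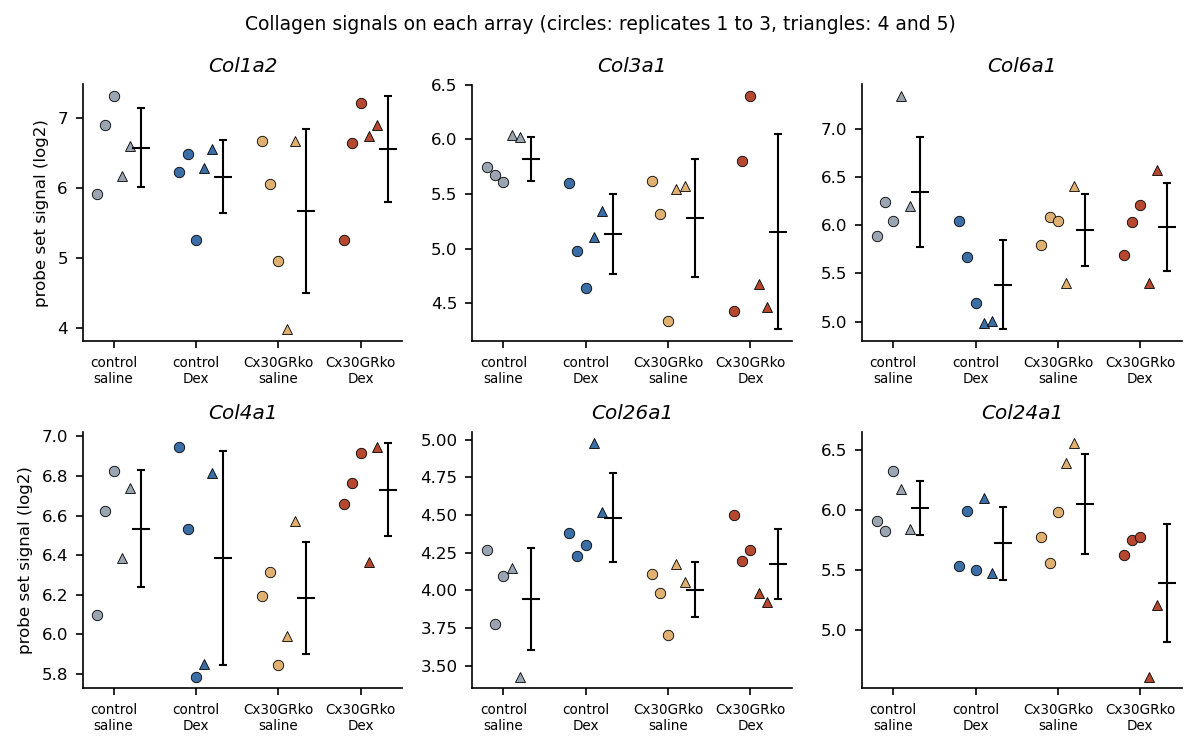
Log2 probe set signals of 6 collagens on each of the 20 arrays by group, with circles for replicates 1 to 3, triangles for replicates 4 and 5, and black bars for the mean ± SD of 5 arrays. Control Dex values of Col3a1 sit below all control saline values, and the low Col24a1 values of the Cx30GRko Dex group come from replicates 4 and 5.

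Col24a1, a minor fibrillar chain, had the smallest p among collagens for Dex in Cx30GRko mice and for the mean Dex effect. In Cx30GRko mice it read 5.77, 5.56, 5.99, 6.40 and 6.56 under saline and 5.62, 5.75, 5.78, 4.61 and 5.20 under Dex. The 2 lowest values were Dex replicates 4 and 5, and the 2 highest were saline replicates 4 and 5. The difference of -0.66 ± 0.23 (adjusted p = 0.47) was -0.054 in the 12-array set, -1.57 in the 8-array set, and -0.34 without the 2 Dex arrays. In control mice it read 5.91, 5.82, 6.33, 6.18 and 5.84 and 5.53, 6.00, 5.50, 6.10 and 5.48, a difference of -0.30 ± 0.23 (adjusted p = 0.959). The mean Dex effect was -0.48 ± 0.16 (adjusted p = 0.442), and -0.32 without the 2 Cx30GRko arrays.

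The type V chains nucleate collagen fibrils and set their width. Col5a1 had 5.17, 5.73, 5.68, 6.06 and 5.37 and 5.50, 5.18, 5.22, 5.51 and 4.73 in control mice under saline and Dex, and 5.29, 5.26, 4.95, 5.22 and 5.27 and 5.52, 5.28, 5.75, 4.81 and 6.05 in Cx30GRko mice. Its Dex effect was -0.38 ± 0.21 in control and 0.28 ± 0.21 in Cx30GRko mice, a difference of 0.66 ± 0.29 (adjusted p = 0.846). Without Cx30GRko Dex replicates 4 and 5 the difference between the Dex effects was 0.70. A second, dimmer probe set of Col5a1 (mean 3.42, against 5.38) gave a Dex difference of -0.056 in control and 0.31 in Cx30GRko mice. Over the 20 arrays it correlated with the first at r = 0.65. For Col5a2, Cx30GRko minus control under saline was -0.64 (SE 0.27, adjusted p = 0.914), with 4.87, 4.73, 4.18, 3.56 and 4.82 against 4.63, 5.01, 4.53, 5.34 and 5.82. This rested on the 8-array set: the difference was -0.13 in the 12-array set and -1.39 in the 8-array set. Under Dex, Col5a2 ranged from 4.18 to 4.70 in control and 3.73 to 4.97 in Cx30GRko mice.

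In the basement membrane, the 2 most widespread type IV chains, Col4a1 and Col4a2, which share a trimer, had Dex differences of opposite sign in Cx30GRko mice. For Col4a1 the difference was 0.55 ± 0.22 (95% interval 0.095 to 1.00, adjusted p = 0.483). It read 6.19, 6.31, 5.85, 5.99 and 6.57 under saline and 6.66, 6.76, 6.92, 6.37 and 6.95 under Dex. The groups overlapped through Dex replicate 4 and saline replicate 5, and the difference was 0.66 and 0.37 in the 2 sets and 0.59 without Dex replicates 4 and 5. In control mice it read 6.10, 6.62, 6.82, 6.38 and 6.74 and 6.95, 6.53, 5.79, 5.85 and 6.81, with a difference of -0.15 ± 0.22 (adjusted p = 0.983), and the Dex effects differed by 0.69 ± 0.31 (adjusted p = 0.846). Col4a2 read 6.06, 5.74, 6.05, 6.35 and 6.05 and 5.88, 5.93, 5.69, 6.11 and 6.89 in control mice and 5.90, 5.95, 5.86, 5.81 and 6.85 and 5.88, 6.26, 6.39, 5.35 and 4.32 in Cx30GRko mice. Its difference in Cx30GRko mice, -0.44 ± 0.31 (adjusted p = 0.626), was 0.10 without Dex replicates 4 and 5, the latter being the lowest of all 20 arrays.

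Of the other network collagens, Col4a4, a chain of the specialised basement membranes of kidney, ear and eye, had its lower mean in Cx30GRko mice under both treatments. Under saline it read 4.08, 3.59, 3.53, 2.90 and 3.96 in Cx30GRko and 3.93, 4.12, 4.24, 4.07 and 4.90 in control mice. The difference was -0.64 ± 0.24 (adjusted p = 0.914) and the groups overlapped only through Cx30GRko replicates 1 and 5. Under Dex it read 3.94, 3.86, 4.05, 3.78 and 3.30 in Cx30GRko and 4.52, 4.05, 4.17, 5.09 and 4.05 in control mice. The groups came within the second decimal of touching, and the difference was -0.59 ± 0.24 (adjusted p = 0.423). It was -0.30 in the 12-array set, -1.03 in the 8-array set and -0.43 without Cx30GRko Dex replicates 4 and 5. Col4a4 lay at a percentile of 36.0 of mean signal among genes.

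Col8a2, a short-chain collagen of the cornea and of vessels, and Col4a5 were among many collagens that spread more widely in the 8-array set than in the 12-array set. Col8a2 under Dex read 4.90, 4.57, 4.50, 3.31 and 3.14 in Cx30GRko and 4.80, 4.15, 4.78, 5.75 and 5.62 in control mice. Replicates 4 and 5 were the lowest 2 of the one group and the highest 2 of the other. The genotype difference was -0.93 ± 0.33 (adjusted p = 0.423), 0.082 in the 12-array set, -2.45 in the 8-array set and -0.36 without Cx30GRko Dex replicates 4 and 5. Under saline it ranged from 4.01 to 4.92 in Cx30GRko and 4.30 to 4.93 in control mice. Col4a5, an X-linked partner of Col4a4 in basement membranes, had a residual SD of 0.58 and read 4.88, 5.04, 4.67, 4.13 and 5.99 and 4.61, 4.79, 4.38, 5.75 and 4.16 in control mice and 4.89, 4.98, 5.21, 5.99 and 4.54 and 4.84, 5.03, 5.21, 4.03 and 4.42 in Cx30GRko mice. Its SD over arrays was 0.24 in the 12-array set and 0.87 in the 8-array set.

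Type VI collagen, whose Col6a1 and Col6a2 chains join Col6a3 in beaded filaments around cells, gave the collagen with the smallest p for Dex in control mice. Col6a1 read 5.89, 6.25, 6.05, 7.34 and 6.20 under saline and 6.04, 5.67, 5.20, 4.99 and 5.01 under Dex. Saline replicate 4 was the highest of all 20 arrays, Dex replicates 4 and 5 were the lowest 2, and the groups overlapped only through Dex replicate 1. The difference was -0.96 ± 0.27 (95% interval -1.53 to -0.40, adjusted p = 0.552), -0.43 in the 12-array set and -1.77 in the 8-array set. A second, dimmer probe set of Col6a1 (mean 4.36, against 5.91) gave a Dex difference of -0.084 and did not follow the first over the 20 arrays (r = -0.015). In Cx30GRko mice Col6a1 read 5.79, 6.09, 6.04, 5.40 and 6.40 and 5.69, 6.04, 6.21, 5.40 and 6.57, a difference of 0.034 ± 0.27 (adjusted p = 0.978), and the Dex effects differed by 1.00 ± 0.39 (adjusted p = 0.846). Under Dex, Cx30GRko minus control was 0.60 ± 0.27 (adjusted p = 0.439). Without Cx30GRko Dex replicates 4 and 5 the Dex difference in Cx30GRko mice was 0.033 and the genotype difference under Dex 0.60. The second probe set gave the opposite sign for both over all arrays, -0.37 and -0.26, and the files do not settle which probe set reads Col6a1 correctly.

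Col6a2, the gene next to Col6a1 on chromosome 10, read 5.51, 6.91, 5.66, 5.97 and 5.68 and 5.76, 5.68, 5.08, 5.44 and 5.81 in control mice under saline and Dex. In Cx30GRko mice it read 5.81, 6.14, 5.55, 6.33 and 6.46 and 6.00, 5.52, 5.61, 5.17 and 5.28. The mean Dex effect was -0.47 ± 0.17 (adjusted p = 0.481), -0.33 in the 12-array set, -0.69 in the 8-array set and -0.37 without Cx30GRko Dex replicates 4 and 5. In control mice saline replicate 2 stood highest and Dex replicate 3 lowest. Col6a5, a type VI chain of narrow expression, read 4.12, 4.44, 4.43, 4.78 and 5.01 under saline and 4.01, 4.17, 4.45, 3.94 and 3.78 under Dex in control mice, a difference of -0.49 ± 0.21 (adjusted p = 0.931). In the 12-array set it was -0.12. In Cx30GRko mice Col6a5 ranged from 3.67 to 4.52 and 3.44 to 4.55.

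Col26a1, a short collagen first described in testis and ovary, had the largest positive Dex difference of the named collagens in control mice. It read 4.27, 3.78, 4.09, 4.15 and 3.43 under saline and 4.38, 4.23, 4.30, 4.98 and 4.52 under Dex, and the groups overlapped through saline replicate 1. The difference was 0.54 ± 0.18 (95% interval 0.17 to 0.90, adjusted p = 0.67). In Cx30GRko mice it read 4.11, 3.98, 3.70, 4.17 and 4.06 and 4.50, 4.19, 4.27, 3.98 and 3.92, a difference of 0.17 ± 0.18 (adjusted p = 0.765), and of 0.31 without Dex replicates 4 and 5. The mean Dex effect of 0.35 ± 0.12 (adjusted p = 0.468) had the same sign in both sets, 0.32 and 0.40.

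Of the fibril-associated collagens, Col14a1, found in connective tissue around vessels and tendons, gave a Cx30GRko minus control difference under saline of -0.63 (SE 0.27, adjusted p = 0.914). It read 3.65, 4.12, 3.81, 3.84 and 3.98 against 4.08, 4.61, 5.37, 4.48 and 4.02, and the groups overlapped. Under Dex it ranged from 3.32 to 5.17 in control and 3.57 to 4.22 in Cx30GRko mice. Col9a1, a cartilage collagen, had a residual SD of 0.68 that came from the 8-array set, where its SD over arrays was 1.03 against 0.28 in the 12-array set. It read 4.28, 4.34, 4.26, 3.36 and 4.26 and 4.00, 4.42, 3.93, 4.93 and 4.49 in control mice and 4.09, 3.89, 3.46, 5.55 and 4.05 and 4.43, 4.11, 4.00, 4.05 and 2.11 in Cx30GRko mice. The highest and the lowest array of all 20 were Cx30GRko saline replicate 4 and Cx30GRko Dex replicate 5.

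Genotype without Dex gave medians of the same sign in both sets. Under saline 29 of 44 collagens were lower in Cx30GRko than in control mice, with a median of -0.13, against 0.0071 over all genes, and the median was -0.12 in the 12-array set and -0.23 in the 8-array set. Under Dex 28 of 44 were lower, with a median of -0.11, and 28 of 44 were higher, with a median of 0.050, once Cx30GRko Dex replicates 4 and 5 were left out. The median difference between the Dex effects was -0.049 and became 0.12 without those arrays.

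In the fit over all 20 arrays, collagens varied more between arrays of one group than most genes. The median residual SD was 0.403 for collagens and 0.317 for all genes, and 35 of 44 collagens lay above the latter. This includes Cx30GRko Dex replicates 4 and 5, where 24 of 44 collagens had their lowest value (54.5%, against 22.0% of all genes). The comparison with all genes is not given without those arrays or for the 12-array set alone. Over the 946 pairs of collagens the median Pearson correlation across 20 arrays was 0.17, and 69.1% of pairs were above 0. The same values were not computed for pairs of other genes, so they cannot be called particular to collagens. For 12 pairs whose chains share a trimer or fibre, permutation p-values (two-sided, 100000 resamples) were adjusted over the 12 pairs. Group was not a covariate, so these correlations and p-values mix differences between groups with variation within them. Col1a1 and Col1a2 correlated at r = 0.61 over 20 arrays (permutation p = 0.00409, adjusted p = 0.0491) and rho = 0.58 (permutation p = 0.00812, adjusted p = 0.0949). Their r was 0.73 in the 12-array set (permutation p = 0.00699, adjusted p = 0.0419), where it dropped to 0.48 without the 2 farthest arrays. It was 0.48 in the 8-array set and 0.61 over 18 arrays without the 2 farthest from the median of Col1a1. When single arrays were left out, the adjusted permutation p of r was above 0.05 in 15 of 20 cases, ranging from 0.0176 to 0.193. The other 11 pairs did not pass over 20 arrays.

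Col1a2 and Col3a1, whose products lie in the same fibres, correlated at r = 0.84 over the 12-array set (permutation p = 0.00082, adjusted p = 0.00984) and rho = 0.71 (permutation p = 0.0122, adjusted p = 0.108). Without the 2 farthest arrays r was 0.69. In the 8-array set it was -0.29 and over all 20 arrays 0.37 (rho 0.35), and the difference between the sets was not tested. Col4a1 and Col4a2, neighbours on chromosome 8, correlated at 0.51 in the 12-array set, -0.15 in the 8-array set and 0.030 over all 20 arrays. Col6a1 and Col6a2 correlated at 0.55, 0.21 and 0.29 in the same order.

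Meningeal fibroblast markers were high and low on the same arrays as Col1a2 in the 12-array set. Averaged over 14 markers, none of them a collagen, the deviation from each gene's mean was 0.71 and 0.63 on control saline replicates 2 and 3 and 0.67 on Cx30GRko Dex replicate 3. It was -0.81 on control Dex replicate 3, -0.77 on Cx30GRko Dex replicate 1 and -0.59 on Cx30GRko saline replicate 3. Col1a2 read 6.89, 7.31 and 7.21 on the first 3 of these arrays and 5.25, 5.25 and 4.96 on the last 3. Col3a1 was low on the last 3, at 4.64, 4.43 and 4.34, and of the first 3 only Cx30GRko Dex replicate 3 stood high, at 6.39. The low arrays came from both treatments and both genotypes. Markers of Schwann cells and nerve roots were also high and low on these arrays, though not in the same order, at 0.48, 1.06 and 0.75 on the high and -0.79, -0.66 and -0.64 on the low arrays. On control Dex replicate 2 the lists parted, at -0.055 for fibroblast and -0.55 for Schwann cell markers.

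A limma fit of every gene on this marker average within the 12-array set, with the group means in the model, gave Col1a2 a slope of 1.39 ± 0.18 log2 units per unit of the markers (adjusted p = 0.0105). It was the only collagen of 44 to pass, against 0.343% of 22166 genes. Col12a1, a fibril-associated collagen of dense connective tissue, had a slope of 0.60 ± 0.13 (adjusted p = 0.117), Col3a1 0.98 ± 0.22 (adjusted p = 0.135), Col4a1 0.56 ± 0.14 (adjusted p = 0.219) and Col1a1 0.54 ± 0.17 (adjusted p = 0.409). Col4a2 had 0.18 ± 0.11 (adjusted p = 0.733). The adjusted p of Col1a2 was 0.0601 without control saline replicate 1, 0.141 without Cx30GRko Dex replicate 1 and 0.0628 without Cx30GRko Dex replicate 3, and under 0.05 without each of the other 9 arrays. Without group means 3 collagens passed, Col1a2, Col3a1 and Col12a1 (6.82%, against 0.609% of genes). In the 8-array set, where the markers spanned -0.23 to 0.46, no gene passed (0%) and the slope of Col1a2 was -0.77 ± 1.75. Over all 20 arrays, with group means and a term for the array set in the model, it was 1.26 ± 0.35 (adjusted p = 0.37). In that fit 0 collagens and 0.153% of genes passed. Without group means and without that term, Col12a1 alone of the collagens passed over 20 arrays (adjusted p = 0.0139), against 0.392% of genes. The slope was chosen after the array values had been seen. For Col1a2 it uses the brighter probe set, which the dimmer one did not follow over the arrays.

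**Figure D4:**
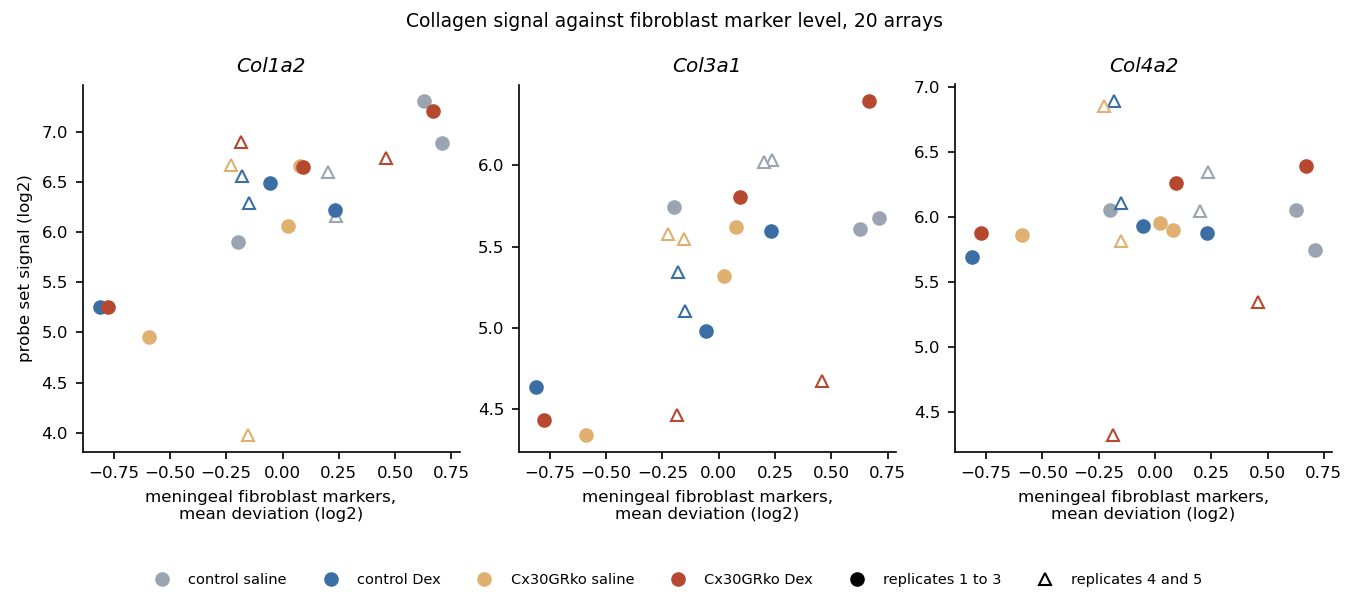
Log2 signal of Col1a2, Col3a1 and Col4a2 on 20 arrays against the mean deviation of 14 meningeal fibroblast markers, with colours for the groups, filled circles for replicates 1 to 3 and open triangles for replicates 4 and 5. Col1a2 climbs with the markers among the filled circles, with a slope of 1.39 ± 0.18 within groups, and the slope of Col4a2 there is 0.18 ± 0.11.

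The marker levels of the groups are given beside the collagen differences. For Dex in control mice 13 of 14 fibroblast markers were lower, with a median of -0.26, and their average ranged over arrays from -0.20 to 0.71 under saline and from -0.81 to 0.23 under Dex. Ogn, a small proteoglycan of fibrous tissue, differed by -2.29 ± 0.81 (adjusted p = 0.776) and Dcn, decorin, by -1.34 ± 0.56 (adjusted p = 0.901). For genotype under saline 12 of 14 were lower in Cx30GRko mice, with a median of -0.39 and an average from -0.59 to 0.078 over the arrays of that group. For Dex in Cx30GRko mice 9 of 14 were higher, with a median of 0.19 and an average from -0.77 to 0.67 under Dex. By set, the fibroblast median for Dex in control mice was -0.58 in the 12-array set and -0.064 in the 8-array set. It was -0.54 and -0.12 for genotype under saline, and 0.13 and 0.095 for Dex in Cx30GRko mice. No marker of the 11 cell type lists passed the test in any comparison. The Schwann cell list differed by a median of -0.49 for Dex in control mice, 0.44 for Dex in Cx30GRko mice and 0.89 for the difference between the Dex effects. These medians were -0.70, 0.14 and 1.06 in the 12-array set and -0.045, 0.68 and 0.42 in the 8-array set. Endothelial and mural lists differed for Dex by -0.13 and -0.15 in control and 0.039 and 0.065 in Cx30GRko mice. Astrocyte, neuron, oligodendrocyte and microglia lists differed by medians of 0.093, 0.18, 0.051 and -0.11 in control and 0.40, 0.18, 0.19 and 0.12 in Cx30GRko mice. Cartilage and bone, skeletal muscle and neutrophil markers had median percentiles of signal of 34.5, 37.7 and 22.0, and their Dex medians were -0.027, -0.18 and -0.13 in control and 0.0014, 0.0041 and 0.063 in Cx30GRko mice. Several medians for Dex in Cx30GRko mice rested on replicates 4 and 5 of that group. Without them the astrocyte median was 0.17, the neuron median -0.017 and the oligodendrocyte median -0.0064, and the Schwann cell median was 0.20. The endothelial and mural medians were then -0.0059 and 0.028, the microglia median 0.19, the fibroblast median 0.14, and the cartilage and bone, skeletal muscle and neutrophil medians -0.0044, 0.10 and 0.12. The part of fibroblasts, nerve roots or other cells in the group differences of the collagens was not tested.

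Genes that make, process, bind and degrade collagen, or lie beside it in basement membranes, did not pass either. Of 66 measured members of 5 lists, 0 passed in any comparison. Among 20 enzymes and chaperones of synthesis the median Dex difference was 0.037 in control and 0.10 in Cx30GRko mice, and P3h4, a partner of the hydroxylation complex, had -0.34 ± 0.18 in control mice (adjusted p = 0.942). Among 13 genes of procollagen processing and crosslinking the medians were 0.025 and 0.25, with Bmp1, the procollagen C-proteinase, at -0.52 ± 0.20 in Cx30GRko mice (adjusted p = 0.483), where it was -0.17 in the 12-array set and -1.05 in the 8-array set. Among 10 receptors the medians were -0.15 and 0.15, with the integrin Itga2 at -0.44 ± 0.17 in control mice (adjusted p = 0.856). Among 12 collagenases and inhibitors they were -0.097 and 0.049. Timp1, an inhibitor of matrix metalloproteinases, was at 0.68 ± 0.18 in control mice (adjusted p = 0.517). Without Cx30GRko Dex replicates 4 and 5 the medians for Dex in Cx30GRko mice were 0.072 for synthesis, 0.19 for processing, 0.048 for receptors and 0.068 for collagenases and inhibitors, and the receptor median was 0.016 in the 12-array set.

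The 11 basement membrane partners of type IV collagen had a median Dex difference of -0.40 in control mice, with 8 lower, and of 0.12 in Cx30GRko mice, with 7 higher. The median difference between the Dex effects was 0.43, with 10 of 11 above 0. It was 0.47 in the 12-array set, 0.077 in the 8-array set and 0.48 without Cx30GRko Dex replicates 4 and 5, without which the Dex median in Cx30GRko mice was 0.17. Nid1, nidogen, which links laminin to type IV collagen, differed by -0.89 ± 0.27 in control mice (adjusted p = 0.61), and its Dex effects differed by 1.28 ± 0.38 (adjusted p = 0.846). In the 8-array set alone the list's median was -0.033 in control mice, against -0.58 in the 12-array set. The list averaged 0.25 and 0.65 on control saline replicates 2 and 3 and 0.53 on Cx30GRko Dex replicate 3, where fibroblast markers were high. It averaged -0.41 on control Dex replicate 3, -0.42 on Cx30GRko Dex replicate 1 and -0.33 on Cx30GRko saline replicate 3, where they were low. The 14 fibroblast markers had a median difference between the Dex effects of 0.39, with 12 above 0. The part of cell content was not tested.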

How the data were processed

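The authors deposited log2 probe set signals for 20 arrays, made with oligo per the submitters' processing notes. The normalization is not given in the sources used here. Every array had the same mean, 4.64, and each gene was centred within replicates 1 to 3 and within replicates 4 and 5. The labels do not say what distinguishes these sets. Of 41345 probe sets, 23521 carried 1 gene symbol, 1814 several and 16010 none in the annotation table of the platform, and the first kind gave 22180 genes, 1 probe set each (highest mean).

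Groups came from the sample titles. A model of 4 group means over 20 arrays was fitted with limma 3.58.1 (lmFit and eBayes, R 4.3.3), adjusted by Benjamini-Hochberg over all genes, with 0.05 as threshold. On simulated data this fit was tested for Dex in control mice. Correlations used Python 3.11.15. Genes given with all arrays were, in each comparison, the 3 collagens of smallest p, plus Col1a1, Col1a2, Col3a1, Col4a1, Col4a2 and the 3 of largest residual SD. Members and lists were chosen with earlier results of these data known. Alternatives were array set or replicate blocks, each set alone, array weights, another quantile step, a filter on dim probe sets, mean of probe sets, only the groups compared, the 2 arrays that stood apart left out, and each array left out. Array number limits precision. Probe signals are not comparable between genes.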

Additional observations from a re-analysis of the deposited data

Results flagged for a closer look

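Of the 68 sets of 5 arrays examined (17 collagens in 4 groups), 10 held 1 array whose gap to its nearest neighbour exceeded Dixon's 95% limit for 5 samples, 0.71 of the range. Chance flags about 1 in 20 groups of like samples. These collagens include 3 chosen for their large spread, and each group joins arrays of both sets, whose spread differs, so the rate does not apply here as it stands. In the control Dex group replicate 3 was low for Col1a2 at 5.25, with the others from 6.22 to 6.55, and for Col5a2 at 4.18, with the others from 4.55 to 4.70. That array also had the lowest fibroblast marker average, -0.81. In the Cx30GRko saline group replicate 3 was low for Col3a1 at 4.34, with the others from 5.32 to 5.62, and for Col5a1 at 4.95, with the others from 5.22 to 5.29, and its marker average was -0.59. In the Cx30GRko Dex group replicate 1 was low for Col1a2 at 5.25, with the others from 6.65 to 7.21, and its marker average was -0.77. Whether fibroblast content set these values was not tested.

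The other 5 lay in the 8-array set (replicates 4 and 5). Col4a2 was high on Cx30GRko saline replicate 5 at 6.85, with the others from 5.81 to 5.95. Col5a2 was low on Cx30GRko Dex replicate 4 at 3.73, with the others from 4.61 to 4.97. Col6a1 was high on control saline replicate 4 at 7.34, with the others from 5.89 to 6.25. Col9a1 was low on control saline replicate 4 at 3.36, with the others from 4.26 to 4.34, and on Cx30GRko Dex replicate 5 at 2.11, with the others from 4.00 to 4.43.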

How the results depend on the processing

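No collagen tested passed the threshold in any comparison made under the 10 other settings or without any of the 20 arrays in turn. The fit of only the groups compared gave neither the mean Dex effect nor the difference between the Dex effects. All other fits gave the 6 comparisons. The filter on dim probe sets kept 29 of 44 collagens. Apart from the cases below, the medians stayed within 0.18 of the reported ones, the SD of the arrays' mean collagen deviation. That limit is wider than the medians themselves, so a median could change sign within it. For Dex in Cx30GRko mice the median was 0.18 in the 12-array set, -0.40 in the 8-array set and 0.11 without Cx30GRko Dex replicates 4 and 5. For the mean Dex effect it was -0.28 in the 8-array set, and for the difference between the Dex effects 0.25 in the 12-array set. For genotype under Dex it was 0.082 in the 12-array set and -0.46 in the 8-array set. Sign changes within the limit included the mean Dex effect, from -0.095 to 0.037 in the 12-array set, with 26 of 44 higher there. Without Cx30GRko Dex replicates 4 and 5, the difference between the Dex effects went from -0.049 to 0.12. Genotype under Dex then went from -0.11 to 0.050. Without single arrays the medians ranged from -0.18 to -0.051 for Dex in control mice, -0.15 to -0.0010 for Dex in Cx30GRko mice, -0.13 to -0.035 for the mean, -0.12 to 0.042 for the difference, -0.21 to -0.073 for genotype under saline and -0.24 to -0.011 under Dex. The cause was not tested.

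Some single collagens changed sign, none of them called. In the 12-array set the difference was -0.12 for Col4a2 for Dex in control mice, 0.45 for Col3a1 and 0.27 for Col4a2 for Dex in Cx30GRko mice, 0.075 for Col1a1, -0.12 for Col1a2 and 0.076 for Col4a2 for the mean Dex effect, 0.39 for Col4a2 for the difference between the Dex effects, -0.045 for Col4a2 for genotype under saline, and -0.15 for Col1a1, 0.35 for Col4a2 and 0.082 for Col8a2 under Dex. In the 8-array set it was 0.039 for Col1a2 for Dex in control mice, -0.19 for Col3a1 for the difference between the Dex effects and -0.65 for Col3a1 for genotype under Dex. With array weights it was -0.021 for Col4a2 for Dex in control mice, 0.22 for Col3a1 and 0.014 for Col4a2 for Dex in Cx30GRko mice, and 0.035 and 0.070 for Col4a2 for the difference and for genotype under Dex. Without Cx30GRko Dex replicates 4 and 5 it was 0.26 for Col3a1 and 0.10 for Col4a2 for Dex in Cx30GRko mice, and 0.075, 0.053 and 0.080 for Col4a2 for the mean, the difference and genotype under Dex. Without single arrays Dex in control mice ranged from -0.29 to 0.0028 for Col4a1 and -0.15 to 0.15 for Col4a2, Dex in Cx30GRko mice from -0.44 to 0.053 for Col3a1, the mean from -0.12 to 0.042 for Col1a1, genotype under saline from -0.17 to 0.10 for Col4a2, and under Dex from -0.016 to 0.29 for Col1a1 and -0.29 to 0.20 for Col3a1.

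Over all genes, calls for Dex in control mice numbered 3 of 22180, with 58 under array weights, 38 in the 12-array set, 7 without Cx30GRko Dex replicates 4 and 5, and 0 with only the groups compared or in the 8-array set. For Dex in Cx30GRko mice they numbered 4, with 18 under array weights, 7 in the 12-array set, 2 with the array set as a block or a further quantile step, 1 with only the groups compared, and 0 in the 8-array set or without Cx30GRko Dex replicates 4 and 5. For the mean they numbered 33, with 129 under array weights, 101 in the 12-array set and 0 in the 8-array set. Replicate numbers are shared between groups, and the deviations of same-numbered arrays correlated at r from -0.31 to 0.037 over 30 pairs. Values were centred within each set, and no pairs of different number are given beside these. They therefore cannot show whether same-numbered arrays are related. With the replicate number as a block, 0, 0 and 15 genes passed for Dex in control mice, Dex in Cx30GRko mice and the mean, and 0 collagens in every comparison. The count of chain pairs passing was 2 in the 12-array set, 0 in the 8-array set, and 0 to 1 without single arrays. The slope of Col1a2 on the fibroblast markers, chosen after seeing the data, was -0.77 in the 8-array set with group means and ranged from 1.29 to 1.51 without single arrays of the 12-array set.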
